A study of Mus musculus with 6 samples.

Results

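The BCL2 family is described here through 10 genes, taken by gene name from the annotation of an Agilent mouse array: Bcl2, Bcl2l1, Mcl1, Bax, Bak1, Bok, Bbc3, Bmf, Bcl2l11 and Bid. All 23 probes that carry these names and are not control probes were used, of 56605 such probes with 37074 gene names. Liver RNA was measured on 6 one-colour arrays, 1 liver per array, 3 from the sEV group and 3 from the control group. The sEV mice received 10 tail vein injections of small extracellular vesicles over 21 days, each of 20 µg; the vesicles came from SW620 cells, an established line of human colorectal cancer. The control mice received phosphate-buffered saline. Both groups were nude mice, an athymic background poor in mature T cells. The age of the mice was not given in the sources used here. Each group held 5 mice, of which 3 livers are on arrays, and the 3 sEV mice were drawn at random.

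BCL2 family proteins decide whether the outer mitochondrial membrane stays intact. The pro-survival proteins BCL2, BCL-XL (encoded by Bcl2l1) and MCL1 bind and restrain the effectors BAX and BAK, which otherwise form pores that let cytochrome c into the cytosol and start the caspase cascade. BH3-only proteins such as PUMA (Bbc3), BMF, BIM (Bcl2l11) and BID are made or released under stress, and they occupy the pro-survival proteins or engage the effectors. Mouse hepatocytes are known to depend on BCL-XL and MCL1, and BID carries the death receptor signal to the mitochondria in these cells.

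Probes of 1 gene read different stretches of its transcripts and did not always give the same result, so the sequences of those the results turn on are shown. They are the array's probes, 5′ to 3′ on the strand of the transcript, and positions are mm9 as the files give them. The following 4 probes lie in coding sequence and are shown whole.
Bmf probe A_51_P482239, chr2:118358312-118358371, minus strand: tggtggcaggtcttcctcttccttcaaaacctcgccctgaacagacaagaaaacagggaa
Bcl2 probe A_51_P380013, chr1:108608970-108609029, minus strand: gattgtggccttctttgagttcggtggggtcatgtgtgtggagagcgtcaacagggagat
Bcl2l1 probe A_52_P510877, chr2:152655185-152655244, minus strand: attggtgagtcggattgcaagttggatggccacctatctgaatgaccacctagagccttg
Bax probe A_51_P254541, chr7:52721469-52721624, minus strand: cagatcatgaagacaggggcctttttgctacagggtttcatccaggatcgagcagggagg

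The next 4 probes lie further along their transcripts, and only their last 30 bases are shown. Capitals mark AATAAA, the usual polyadenylation signal hexamer, searched on the probe's own strand.
Bmf probe A_55_P2029106, chr2:118354496-118354555, minus strand: ggtacagtttttAATAAAaccatttaaagc
Bcl2 probe A_52_P534870, chr1:108434793-108434852, minus strand: aaaacattacattgccattaactccccatg
Bcl2l1 probe A_55_P1974877, chr2:152606404-152606463, minus strand: agtAATAAAtggtgtctgtgactctgtgaa
Bid probe A_52_P574653, chr6:120843464-120843523, minus strand: ccatatcaaaagcaaatgttccctccgctt
The hexamer starts at position 43 of the distal Bmf probe and at position 34 of the brightest Bcl2l1 probe, counted from the probe's 5′ end. The Bax probe in coding sequence spans 156 bases of the genome, more than its own length, since it crosses an intron. Whether any of these probes also matches other transcripts was not analysed here.

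All 6 arrays were on 1 slide read in 1 scan. Slide row 1 held sEV liver 1 and all 3 control livers, and row 2 held sEV livers 2 and 3. Within-row values therefore set 1 sEV liver against the controls, and they are given beside the results. In a fit with slide row as a covariate the fold change rests on the same livers, since row 2 holds no control liver. Between 49.9% and 53.3% of spots on sEV arrays, and 50.9% to 54.7% on control arrays, were well above background, and none was saturated. Alb, the hepatocyte product albumin, was measured on every array, with a log2 signal of 9.34 to 9.85 in sEV livers and 9.40 to 9.59 in control livers. Log2 signal here is the log2 of a probe's processed signal relative to the 75th percentile of its array, so that 0 is that percentile. Levels of different probes are not comparable, since each probe has its own brightness.

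Of the 23 probes, 19 stood well above background on 3 or more of the 6 arrays and were tested. Among these 19, 6 passed an adjusted p of 0.05 in limma (31.6%), against 14.0% of the 28766 probes tested on the whole array. Of the 6, 3 were higher in sEV livers, 2 from Bcl2l1 and 1 from Bid, and 3 were lower, 1 each from Bcl2, Bax and Bmf; over the array 7.52% of probes were higher and 6.53% lower. The 3 sEV livers did not overlap the 3 control livers for 14 of the 19 probes (73.7%), 8 higher and 6 lower, against 38.8% of all probes, 22.3% higher and 16.4% lower. Probes of 1 gene share a transcript and are not independent, and by the brightest probe of each gene 3 of the 10 genes passed (Bid higher, Bcl2 and Bmf lower), against 15.2% of 19443 gene names, 7.96% higher and 7.25% lower. With slide row as a covariate 2 of the 19 probes passed, against 2.91% of all probes, and within row 1 none did in limma (0), against 2.45%. At an unadjusted p under 0.05 there were 14 of the 19, against 31.6% of all probes, and within row 1 8 of the 19, against 20.3% of all probes. The median log2 fold change of the 19 probes was 0.10, against 0.04 over the array, and the median size was 0.37, against 0.21. Among the calls over the whole array 53.6% were higher, and this share was 41.0% when the median replaced the percentile as the scale. With that scale 3 family probes passed, the 3 lower ones. In whole liver, fewer cells of a type and less RNA per cell cannot be told apart.

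**Figure D1:**
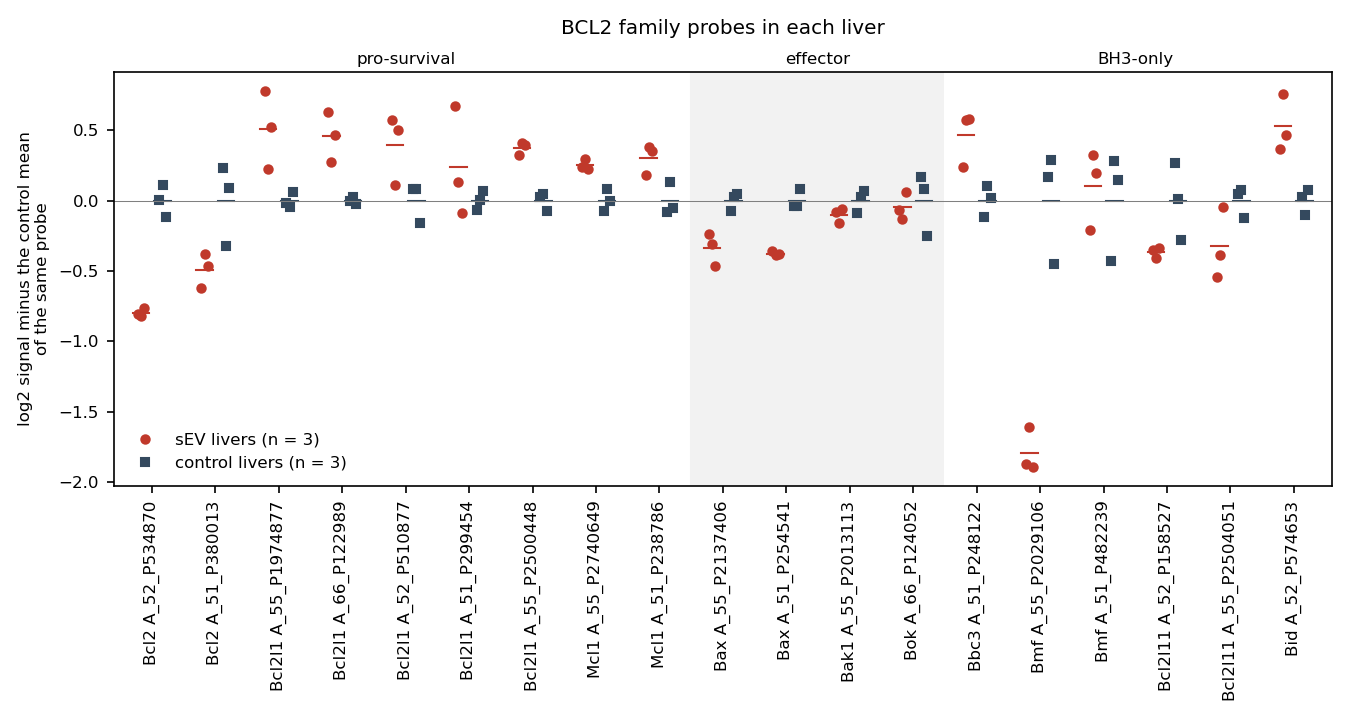
Log2 signal of the 19 tested BCL2 family probes in each liver, shown as the difference from the mean of the 3 control livers for that probe (log2 units), with sEV livers left of control livers within each probe and short lines at the group means. The Bmf probe A_55_P2029106 lies furthest below 0, with log2 signals of -2.44 to -2.15 in sEV livers against -0.999 to -0.26 in control livers.

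**Figure D2:**
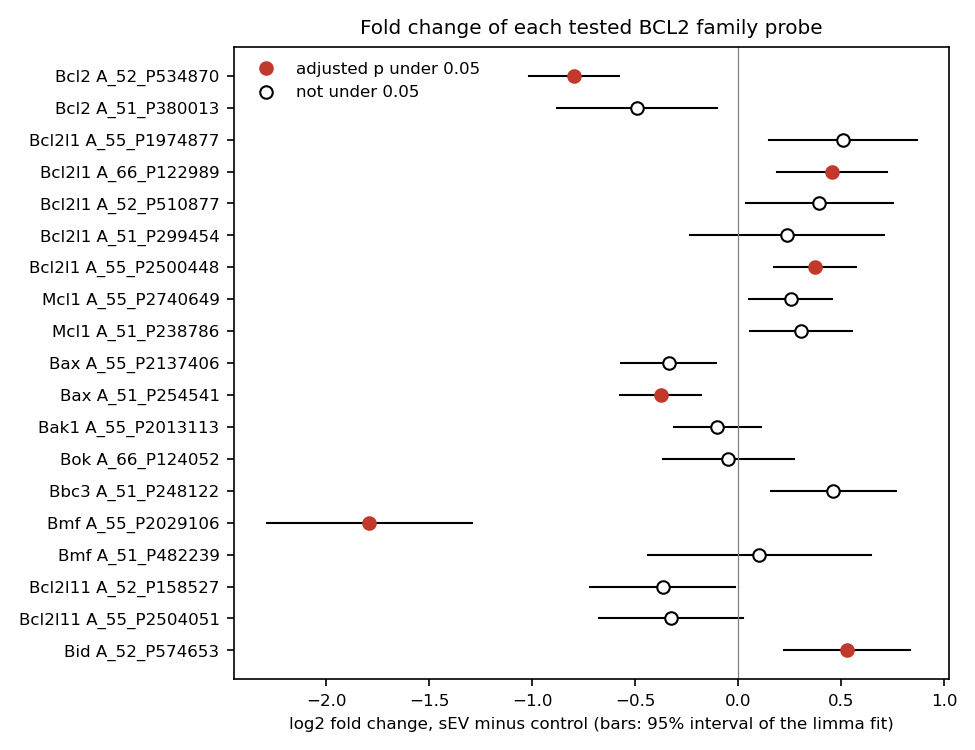
Log2 fold change, sEV minus control, of each tested probe with its 95% confidence interval from limma, grouped by role (3 livers per group; filled points have an adjusted p under 0.05). The probes of Bcl2l1 and Mcl1 lie right of 0, those of Bax left of 0, and the 2 probes of Bmf are at -1.79 and 0.10.

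Among the pro-survival genes, Bcl2 fell by its brightest probe, and 2 of the 5 Bcl2l1 probes rose. Bcl2, the founding member, is best known for keeping lymphocytes alive. Its brightest probe A_52_P534870, annotated to transcript variant 1 and starting at base 7109 of that transcript, had log2 signals of -2.83, -2.83 and -2.78 in sEV livers, against -2.02, -1.91 and -2.13 in control livers. Every sEV liver was below every control liver, and the sEV values were close together. The log2 fold change was -0.80 ± 0.09 (SE), a 1.74-fold lower signal, with an adjusted p of 0.00537. Within slide row 1 it was -0.81, with an adjusted p of 0.0824. It was -0.39 after the normexp background correction, with an adjusted p of 0.00997.

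The coding-sequence probe of Bcl2, A_51_P380013, is annotated to transcript variant 2. It had log2 signals of -3.25, -3.01 and -3.09 in sEV livers, against -2.39, -2.95 and -2.54 in control livers. The groups did not overlap, although control liver 2 lay next to the sEV livers. Its log2 fold change of -0.49 ± 0.16 had an adjusted p of 0.0939, and without control liver 2 it was -0.65, with an adjusted p of 0.0437. After normexp it was -0.14, and within slide row 1 it was -0.62. The third Bcl2 probe, A_52_P438280, was well above background on 2 control arrays and no sEV array and was not tested. The gap between the first pair of probes in log2 fold change was -0.31 ± 0.23 (SE), with an exact two-sided permutation p of 0.3 over livers.

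Over the 6 livers, the genes whose brightest probe was most like the main Bcl2 probe were Taf7 (Pearson r = 0.999), Nme7 (r = 0.998) and Wdr44 (r = 0.998), out of 13739 genes with full names. Taf7 encodes a subunit of the general transcription factor TFIID, and Nme7 a protein of the nucleoside diphosphate kinase family. The 6 livers form 2 groups that differ for all of these genes, and their own log2 fold changes were -0.49 ± 0.08, -0.58 ± 0.09 and -0.60 ± 0.08.

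Bcl2l1 encodes BCL-XL, the pro-survival protein anchored in the outer mitochondrial membrane, and has the most probes of the family, 5. All 5 had positive log2 fold changes, between 0.24 and 0.51. For 4 of them every sEV liver was above every control liver, as for 22.3% of all probes. These 5 probes read 1 gene in the same livers and are not independent. The brightest probe, A_55_P1974877, had log2 signals of 4.63, 4.07 and 4.37 in sEV livers, against 3.83, 3.81 and 3.91 in control livers. The sEV livers were all higher but spread widely, with liver 1 at the top. Its log2 fold change was 0.51 ± 0.15, with an adjusted p of 0.0712, and it was 0.65 without sEV liver 2, with an adjusted p of 0.0404. Within slide row 1, which holds sEV liver 1 alone of its group, it was 0.78.

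The Bcl2l1 probe A_66_P122989, starting at base 1419 of transcript variant 1, had log2 signals of -0.71, -1.06 and -0.87 in sEV livers, against -1.34, -1.31 and -1.36 in control livers. It passed, with a log2 fold change of 0.46 ± 0.11 (1.37-fold higher) and an adjusted p of 0.0423. Its annotated genome position spans 47 bases for a probe of 60 and overlaps that of the brightest probe, so its place is uncertain. Probe A_55_P2500448 also lies in coding sequence and is annotated to transcript variant 4. It had -3.56, -3.48 and -3.50 in sEV livers, against -3.86, -3.84 and -3.96 in control livers. It also passed, at 0.37 ± 0.08 and an adjusted p of 0.0333. The sEV livers were above the controls for both probes. Neither call held in most settings: leaving out any 1 liver ended the second (adjusted p 0.0533 to 0.113), and leaving out any liver but sEV liver 2 ended the first (adjusted p up to 0.121). Within slide row 1 the values were 0.63 and 0.32.

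The coding-sequence Bcl2l1 probe shown above, A_52_P510877, had -1.52, -1.98 and -1.60 in sEV livers, against -2.02, -2.01 and -2.26 in control livers. The groups were separated by a narrow gap, and the log2 fold change of 0.39 ± 0.15 had an adjusted p of 0.129. A_51_P299454, near the start of the transcript, overlapped between the groups (0.24 ± 0.20, adjusted p 0.448). These values were 0.57 and 0.67 within slide row 1. sEV liver 1 was the highest liver for 4 of the 5 Bcl2l1 probes. In log2 fold change the brightest probe differed from the other 4 by 0.05 to 0.27, with exact two-sided permutation p of 0.1 to 0.7, where 0.1 is the smallest that 3 livers against 3 allow.

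Mcl1, a short-lived pro-survival protein needed by hepatocytes and granulocytes, had 2 probes 194 bases apart. The brighter, A_55_P2740649, had log2 signals of 4.84, 4.90 and 4.83 in sEV livers, against 4.52, 4.68 and 4.59 in control livers. The other, A_51_P238786, had 4.44, 4.64 and 4.61 in sEV livers, against 4.18, 4.39 and 4.21 in control livers. Both separated the groups with higher values in sEV livers, by 0.26 ± 0.08 and 0.30 ± 0.10, and neither passed (adjusted p 0.0954 and 0.0995). They were 0.24 and 0.18 within slide row 1. With 95% confidence the brighter probe's log2 difference lay between 0.05 and 0.46.

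Of the effector genes, only Bax had a probe that passed. BAX is the effector that moves from the cytosol into the mitochondrial membrane. Its coding-sequence probe A_51_P254541 had log2 signals of 0.88, 0.85 and 0.85 in sEV livers, against 1.20, 1.19 and 1.31 in control livers. The sEV livers were nearly equal and all below the controls, with a log2 fold change of -0.38 ± 0.08 (1.30-fold lower) and an adjusted p of 0.0316. Bax's brighter probe A_55_P2137406 had 1.99, 1.92 and 1.77 in sEV livers, against 2.16, 2.26 and 2.28 in control livers. It was also lower in every sEV liver, by -0.34 ± 0.10 on the log2 scale, and its adjusted p was 0.0653. The call on the first probe ended when any 1 liver was left out (adjusted p 0.0577 to 0.107). Within slide row 1 the values were -0.36 and -0.24.

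Bak1 encodes BAK, the effector that resides in the mitochondrial membrane. Its probe had log2 signals of 1.77, 1.69 and 1.79 in sEV livers, against 1.76, 1.87 and 1.92 in control livers. The groups overlapped, and the difference of -0.10 ± 0.09 (adjusted p 0.475) had a 95% interval of -0.31 to 0.11. Bok, a BAX-like effector whose protein is kept low by degradation, had 0.56, 0.49 and 0.68 in sEV livers, against 0.79, 0.70 and 0.37 in control livers. These groups overlapped too, with a difference of -0.05 ± 0.13 (adjusted p 0.838) and a 95% interval of -0.36 to 0.27. Bak1 was at -0.08 and Bok at -0.06 within slide row 1.

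The BH3-only genes held the largest difference of the family. Bmf encodes a BH3-only protein that binds the dynein light chain DYNLL2 and is released from it under stress. Its brighter probe A_55_P2029106, starting at base 4570 of the transcript, had log2 signals of -2.42, -2.15 and -2.44 in sEV livers, against -0.38, -0.26 and -0.999 in control livers. Every sEV liver was more than 1 log2 unit below the lowest control liver. The log2 fold change was -1.79 ± 0.21, a 3.46-fold lower signal, with an adjusted p of 0.00550. Within slide row 1 it was -1.87, with an adjusted p of 0.0682, and the adjusted p stayed between 0.00400 and 0.0285 when any 1 liver was left out.

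The other Bmf probe did not show this. A_51_P482239, in the coding sequence from base 754 and 3816 bases of genome away, had log2 signals of -3.37, -2.84 and -2.96 in sEV livers, against -3.59, -2.88 and -3.01 in control livers. The groups overlapped almost fully, with a log2 fold change of 0.10 ± 0.23, an adjusted p of 0.785 and a 95% interval of -0.44 to 0.65. Its sign turned within slide row 1, at -0.21. It was well above background on all 6 arrays. Within each liver the distal probe's log2 signal exceeded the coding probe's by 0.53 to 0.95 in sEV livers and by 2.02 to 3.21 in control livers. The gap in log2 fold change between the probes was -1.89 ± 0.37, with an exact two-sided permutation p of 0.1, the smallest possible here. This was 1 of 9 probe pairs compared within genes, and the p adjusted over the 9 pairs was 0.45. A statement on Bmf RNA as a whole cannot be made from these probes.

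**Figure D3:**
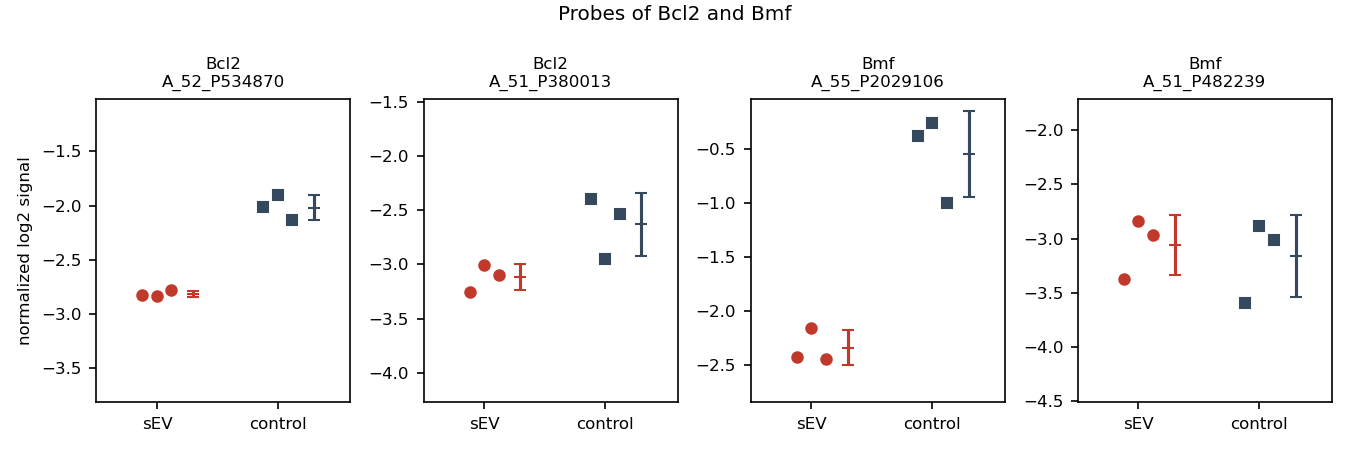
Normalized log2 signal of 2 Bcl2 probes and 2 Bmf probes in each sEV liver (left) and control liver (right), with the mean and SD of 3 livers beside the points; each panel has its own axis of the same span. The groups are apart for Bcl2 A_52_P534870 and Bmf A_55_P2029106, and overlap for Bmf A_51_P482239.

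Bid encodes the BH3-only protein that caspase-8 cleaves after death receptor signalling. Its probe A_52_P574653 had log2 signals of -0.38, 0.02 and -0.27 in sEV livers, against -0.71, -0.85 and -0.66 in control livers. All sEV livers were higher, with a log2 fold change of 0.53 ± 0.13 (1.44-fold higher) and an adjusted p of 0.0408. Leaving out any liver but sEV liver 1 ended the call (adjusted p up to 0.111), as did scaling to the median (0.0623), and within slide row 1 the value was 0.36. The second Bid probe stood above background on none of the arrays (0).

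Bbc3 encodes PUMA, a p53 target that binds all the main pro-survival proteins. Its single probe had 2.46, 2.80 and 2.80 in sEV livers, against 2.11, 2.33 and 2.24 in control livers. The groups did not overlap, with a log2 fold change of 0.46 ± 0.13 and an adjusted p of 0.0585. Without sEV liver 1 it was 0.57, with an adjusted p of 0.0321, and within slide row 1 it was 0.24.

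Bcl2l11 encodes BIM, a FOXO target that removes lymphocytes and myeloid cells at the end of their life. Its brighter probe A_52_P158527 had -1.07, -1.13 and -1.05 in sEV livers, against -0.45, -0.71 and -0.99 in control livers. The sEV livers were below the controls, with control liver 3 close to them, and the log2 fold change was -0.37 ± 0.15 with an adjusted p of 0.144. A_55_P2504051, annotated to transcript variant 4, overlapped between the groups (-0.33 ± 0.15, adjusted p 0.182). Both stayed below 0 within slide row 1, at -0.35 and -0.54. Its other 2 probes stood above background on none of the arrays (0).

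**Figure D4:**
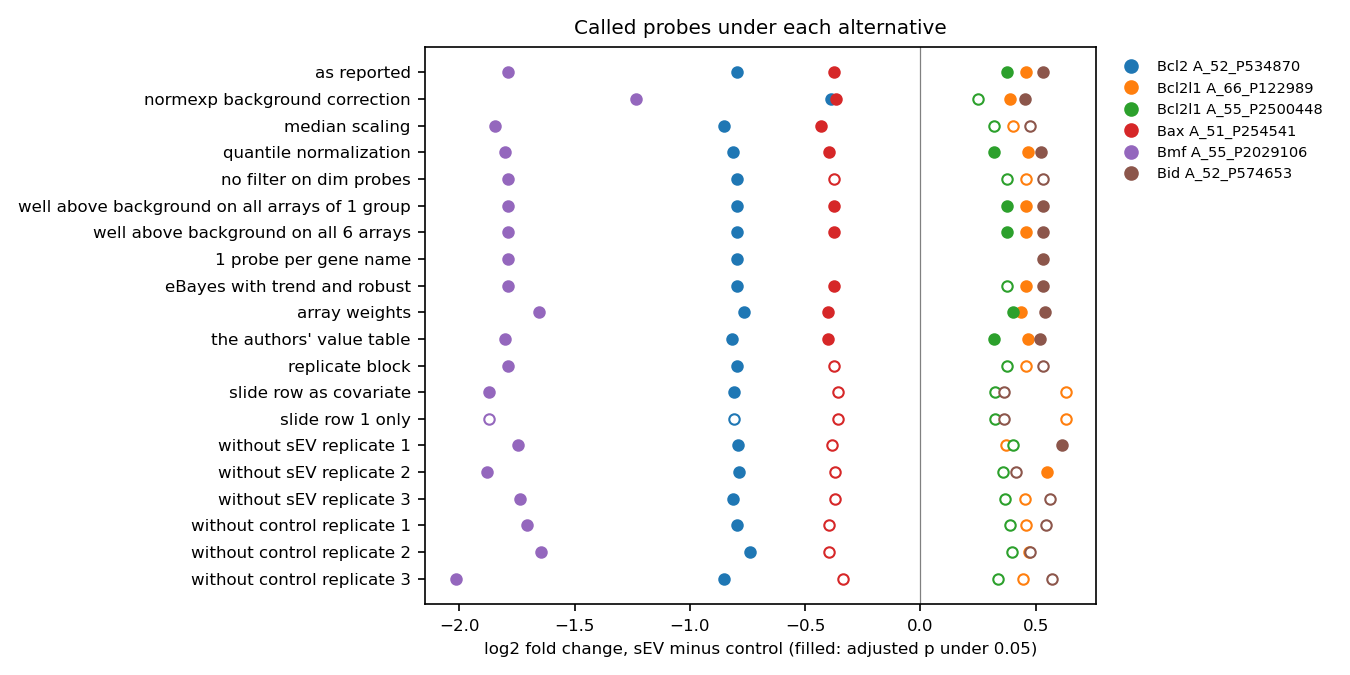
Log2 fold change, sEV minus control, of the 6 probes that passed, as reported and under 19 other settings (filled: adjusted p under 0.05); the Bax probe and both Bcl2l1 probes have no value with 1 probe per gene name. Bcl2 A_52_P534870 and Bmf A_55_P2029106 passed in 18 of 19 settings, Bid in 9 of 19, and the Bax and Bcl2l1 probes in 5 to 8 of 18.

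Other BCL2 family genes and the genes around them were taken from lists and described by the brightest probe of each gene. Of the other pro-survival genes, 2 were tested and Bcl2a1d, an A1 gene active in haematopoietic cells, rose (0.74 ± 0.14, adjusted p 0.0209), while Bcl2l2 was at -0.07. Its near-identical copies Bcl2a1a and Bcl2a1b have no probe of those names on the array, and Bcl2l10 stood above background on no array. Of 11 other BH3-only and BH3-like genes, 9 were tested and Bik, a BH3-only protein of the endoplasmic reticulum, fell by 0.81 on the log2 scale (SE 0.15, adjusted p 0.0222). The median of these 9 was 0.06, with Pmaip1, which encodes the p53 target NOXA, at -0.21 (adjusted p 0.421). Of 16 genes that act downstream of BAX and BAK, 1 passed: Casp9, the caspase activated on the apoptosome, was at -0.50 ± 0.10 (adjusted p 0.0238), while its second probe was at -0.07 (adjusted p 0.802). The median of the 16 was -0.04, against 0.03 over the 19443 gene names. Of all these gene names 15.2% passed by their brightest probe, and the shares in the lists of 9 and 16 were below that.

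Of 26 genes that regulate the family, 2 rose and 2 fell, a share close to the 15.2% of all gene names that passed. The other 22 did not pass, and the median of the 26 was 0.11. E2f1, the cell cycle transcription factor, fell (-1.45 ± 0.13, adjusted p 0.00216), as did Ddit3, which encodes the stress factor CHOP (-1.06 ± 0.15, adjusted p 0.0105). Stat3, which is known to activate Bcl2l1 and Mcl1, rose (0.83 ± 0.13, adjusted p 0.0137), and so did Cebpb (0.69 ± 0.10, adjusted p 0.0107). Trp53, the p53 gene, was at 0.21 (adjusted p 0.449), and Dynll2, which encodes the partner of BMF, was at 0.08 (adjusted p 0.733).

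**Figure D5:**
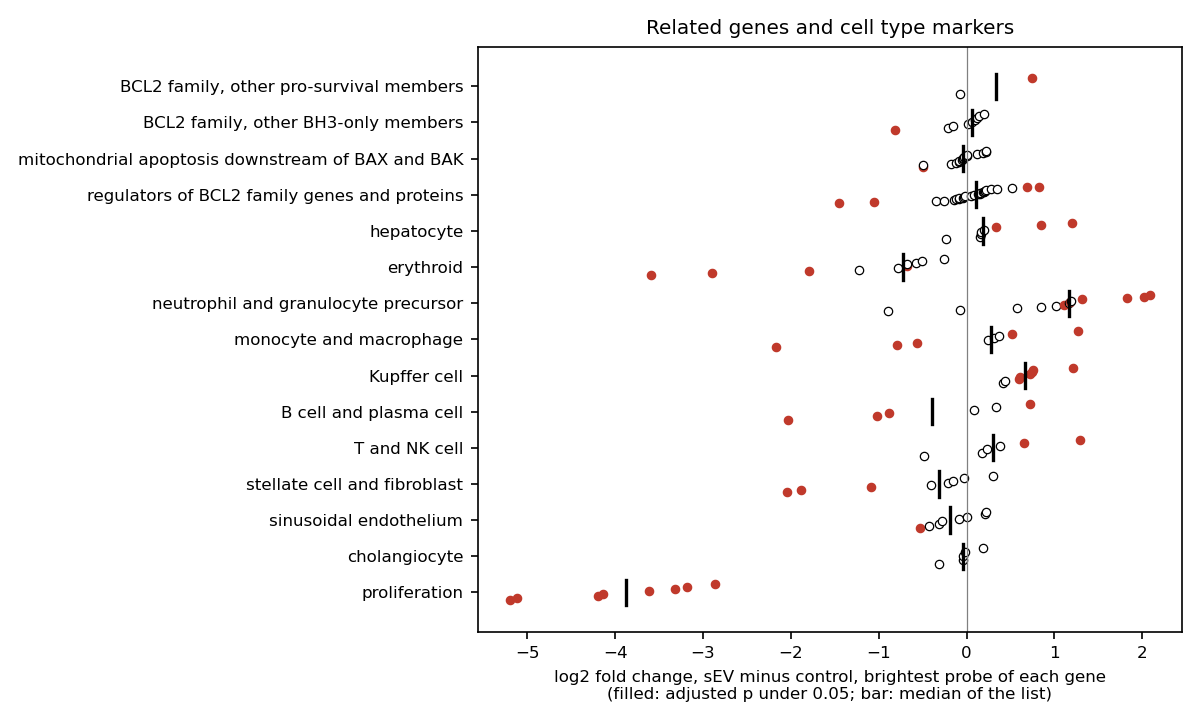
Log2 fold change, sEV minus control, of the brightest probe of each tested gene in the 4 related lists and the marker lists, with the median of each list marked. The 8 proliferation markers have a median of -3.88, which includes 2 markers well above background on no sEV array, and the Kupffer cell markers a median of 0.67.

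Markers of several cell types differed between the groups beside these results. By the brightest probe of each gene, 15.2% of all 19443 gene names passed, 7.96% higher and 7.25% lower. All 8 proliferation markers fell, with log2 fold changes from -5.20 (Cdc20) to -2.86 (Top2a), and their summed level, on a linear scale where 1 is the array's 75th percentile, was 1.74 to 2.38 in sEV livers, against 27.9 to 34.8 in control livers. Of these 8 markers, 2 were well above background on no sEV array and 1 on a single one, so that their falls and the sEV sums are not well measured. Of 10 tested erythroid markers 4 fell, with sums of 225 to 756 in sEV livers and 720 to 799 in control livers. The lowest sEV sum was that of sEV liver 2. The size of the fall of Ahsp is not well measured. It was well above background on 1 of 3 sEV arrays and on all 3 control arrays. Another of the 4 was well above background on no sEV array, so its fall is not well measured either. Of 13 neutrophil and granulocyte precursor markers 6 rose, with sums of 153 to 162 against 104 to 127. These 6 encode granule or S100 proteins, and 7 markers did not pass. Csf3r, the lowest at -0.89 (adjusted p 0.452), was at 3.40 in sEV liver 2, against 6.29 and 6.08 in the other sEV livers. Of 8 Kupffer cell markers 6 rose, with sums of 103 to 114 against 65.9 to 89.1. Of 6 tested B cell and plasma cell markers 3 fell and 1 rose, with sums of 1.14 to 1.33 in sEV livers and 1.37 to 1.59 in control livers. Ms4a1, which encodes CD20, was well above background on all 3 control arrays and no sEV array, and Cd79a on none of either group. Of 8 stellate cell and fibroblast markers 3 fell (sums 59.1 to 81.3 against 78.5 to 111), and of 8 hepatocyte markers 3 rose (sums 3033 to 3469 against 2687 to 2856). The sums lean on the brightest markers of a list. In the stellate cell list that is Dcn (-0.22) and in the neutrophil list Csf3r, and neither passed. Of 6 tested T and NK cell markers 2 rose, while the sums were lower, at 15.2 to 15.9 in sEV livers against 16.8 to 20.8 in control livers. Cd4, the brightest of that list, was at -0.48 (adjusted p 0.056). Of the remaining lists, 2 of 8 monocyte and macrophage markers rose and 3 fell. In addition, 1 of 8 sinusoidal endothelium markers fell, and none of 5 tested cholangiocyte markers passed (0). The part of these cells in the values of Bcl2, Bmf and the other members was not tested.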

How the data were processed

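The deposited scanner files hold the processed signal of each spot as intensity. Per the file headers, background was subtracted and spatial trends were removed within each array by Agilent Feature Extraction 10.7.1.1, the version in the submitters' processing notes. The deposited value table holds log2 values, with a median of 4.50 in every column and sorted values that differ by at most 0.004 between columns, as quantile normalization gives, and served as an alternative; the authors' steps for it are not given in the sources used here.

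From the intensities, log2 minus the array's 75th percentile was computed without control spots and outlier-flagged spots (91 to 171 per array, none of a member), and spots of 1 probe were averaged. A probe was tested where 3 or more of the 6 arrays had it well above background. The test was limma 3.58.1 (R 4.3.3), with lmFit and eBayes and without covariates; p-values were adjusted by Benjamini-Hochberg over 28766 probes, and the threshold was 0.05. The fit was tested on simulated data. The number of arrays limits the precision. Fold changes are given ± the fit's standard error, and gaps between probes ± the standard error over livers. The labels give 1 liver per array, 3 per group.

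Every member is named with all its probes. Of each related list, up to 4 genes past the threshold with the largest moderated t are named, otherwise the 2 highest and 2 lowest, and named markers are the highest or lowest of their list. Bcl2l2, Pmaip1, Trp53, Dynll2, Cd79a and the genes of the closing section were named after their values were seen, and the comparison of probes within a gene was added then too. The members and lists were chosen with earlier results of these data known. Same-numbered livers deviated from their group means with correlations of 0.05, 0.16 and 0.00, so the numbers were not taken as pairs. Alternatives changed the background correction, scaling, filter, probes per gene, variance model, array weights, value table, replicate block and slide row, and left out each liver. Plots used matplotlib 3.10.9 (Python 3.11.15).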

Additional observations from a re-analysis of the deposited data

How the results depend on the processing

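As reported, 6 family probes and 4041 probes in all passed. The family count was 10 with normexp (20.6% of all probes passed, against 14.0% as reported) and 10 with a trended, robust variance (17.1%). It was 3 with median scaling (11.5%) and 3 of 10 with 1 probe per gene name (16.9% of 19447 gene names). Without a filter it was 2 of 23, where 950 of 56605 probes passed in all (1.68%). With slide row as a covariate it was 2 (836 in all), and within row 1, where the lone sEV liver is assumed to vary like the controls, it was 0 in limma (704 in all), with 8 of 19 family probes at an unadjusted p under 0.05 (20.3% of all probes), against 14 of 19 as reported (31.6% of all probes). With the replicate number as a block, which the labels do not tie to a pairing, it was 2 (2534 in all), and the calls on Bax, Bcl2l1 and Bid ended. Leaving out 1 liver gave 2 to 4 family probes and 1502 to 3229 in all. The log2 fold change of Bmf A_51_P482239 turned to -0.21 with slide row as a covariate and within row 1, which rest on the same livers. It was -0.01 without sEV liver 2 and -0.11 without control liver 1, and over the left-out livers this log2 fold change ran from -0.11 to 0.26. That of Bok turned to 0.025 with array weights and 0.038 without control liver 1, and ran from -0.17 to 0.038 over the left-out livers. In none of the settings did either probe pass (lowest adjusted p 0.376). The cause of these changes was not tested. Without a filter more probes were tested, while leaving out 1 liver kept the same 28766 probes with fewer livers. Over all single-probe results and settings, 283 kept direction and side of the threshold, 45 lost and 18 gained significance, and 6 changed sign. Signal close to background limits the dimmest probes: the lowest log2 signal well above background was -4.52 to -3.94 on sEV arrays and -4.71 to -4.22 on control arrays.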

Other observations

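Probes of 1 gene also disagreed among the related genes, chosen here after their values were seen. Htra2 encodes a mitochondrial protease that is released with cytochrome c. Its probe A_55_P1973698 had log2 signals of -0.17, -0.07 and -0.24 in sEV livers, against 1.17, 1.03 and 0.83 in control livers (-1.17 ± 0.12, adjusted p 0.00353 in limma). The brightest Htra2 probe overlapped between the groups (-0.03 ± 0.08, adjusted p 0.817), and so did the remaining one (0.01 ± 0.09, adjusted p 0.965). For Stat5a, a transcription factor downstream of growth hormone and cytokine receptors, the brightest probe was at 0.52 ± 0.15 (adjusted p 0.0727) and separated the groups upward. Its other probe, A_55_P1990495, fell by 0.45 on the log2 scale (SE 0.09, adjusted p 0.0268).

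Foxo3, known to activate Bcl2l11 and Bbc3, did not pass by its brightest probe (0.34 ± 0.13, adjusted p 0.121). The dimmer Foxo3 probes A_55_P2506540 and A_55_P2735425 rose by 0.57 ± 0.12 and 0.63 ± 0.16 (adjusted p 0.0277 and 0.0441). Of the 3 Stat3 probes, A_55_P1991219 rose with the brightest one (0.88 ± 0.11, adjusted p 0.00679), and A_52_P569499 overlapped between the groups (0.11 ± 0.19, adjusted p 0.733). The cause of these gaps between probes was not tested.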
